A study of Mus musculus with 8 samples.

Results

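DNA replication and homologous recombination genes were followed across 8 arrays of NS tet-off ESCs, mouse embryonic stem cells in which doxycycline (Dox) stops the expression of nucleostemin (NS, encoded by Gnl3). The list holds 42 genes chosen by name for their roles, with earlier results of these data known. Of these, 41 have a probe set among the 18194 genes measured, and Xrcc2 is not analysed here. The 41 genes fall into 10 origin licensing genes, 17 fork genes, 3 genes of nucleotide supply, 8 recombination and repair genes and 3 checkpoint genes. Where a gene had several probe sets, the one with the highest average signal stood for it.

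All 8 arrays hold RNA of male 129sv ES cells. In these cells both copies of the NS gene are disrupted, and an NS cDNA placed at the ROSA26 locus is driven by the tet-off system, so that untreated cells express NS from the transgene and not from its own gene. Dox-untreated cells and cells given Dox for 6 days were compared in 4 backgrounds, which are cells bearing an empty vector, the same empty vector-bearing cells exposed to the 2i condition (inhibitors of MEK and GSK3b), Nanog-overexpressing cells and Esrrb-overexpressing cells. The other cultures were grown with LIF and serum. The comparison asks how the response to loss of NS is altered by forced Nanog or Esrrb, as against the empty vector or the 2i condition. Nanog and Esrrb were forced from stably integrated vectors under puromycin selection. Each of the 8 conditions has 1 array, so no test was possible within a pair. A pair with active Stat3 is not analysed here.

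Before a cell copies its DNA, the origin recognition complex with Cdc6 and Cdt1 loads the Mcm2 to Mcm7 helicase ring onto origins, and Gmnn holds Cdt1 in check afterwards. Cdc45 and the GINS complex then turn the ring into an active helicase, and polymerases, the Pcna clamp, its Rfc loaders and Rpa work at the moving fork. Brca1, Brca2, Rad54l and their partners repair broken or stalled forks by homologous recombination, and Atr and Chek1 signal that a fork has stalled. ESCs spend much of their cycle in S phase, and many of these genes are transcribed in S phase under E2F factors.

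The upstream promoter sequences of 6 members are shown, with falls of different size in the empty vector pair and with or without an E2F word. No member with a higher signal in that pair is shown. E2F words are more common among these 6 than among all members. They are the 250 bases before the annotated start in RefSeq (GRCm38.p6), printed 5′ to 3′ in the direction of transcription, with capitals for the E2F words TTTCCCGC, TTTCGCGC, TTTGCCGC and TTTGGCGC or their reverse complements. They come from chr8:75109259-75109508 on the plus strand (Mcm5), chr1:128359706-128359955 on the minus strand (Mcm6), chr11:98907901-98908150 on the plus strand (Cdc6), chr4:108579204-108579453 on the plus strand (Orc1), chr8:95633309-95633558 on the plus strand (Gins3) and chr6:126939588-126939837 on the minus strand (Rad51ap1).
Mcm5: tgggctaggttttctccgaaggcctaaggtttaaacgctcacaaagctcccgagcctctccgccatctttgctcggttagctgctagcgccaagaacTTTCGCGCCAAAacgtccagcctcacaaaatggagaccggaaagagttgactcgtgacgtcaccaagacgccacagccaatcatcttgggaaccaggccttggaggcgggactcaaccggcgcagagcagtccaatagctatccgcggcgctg
Mcm6: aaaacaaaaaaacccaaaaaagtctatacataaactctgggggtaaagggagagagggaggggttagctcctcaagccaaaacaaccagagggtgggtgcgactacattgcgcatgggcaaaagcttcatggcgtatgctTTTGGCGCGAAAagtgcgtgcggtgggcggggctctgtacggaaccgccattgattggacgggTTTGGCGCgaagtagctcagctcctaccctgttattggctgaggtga
Cdc6: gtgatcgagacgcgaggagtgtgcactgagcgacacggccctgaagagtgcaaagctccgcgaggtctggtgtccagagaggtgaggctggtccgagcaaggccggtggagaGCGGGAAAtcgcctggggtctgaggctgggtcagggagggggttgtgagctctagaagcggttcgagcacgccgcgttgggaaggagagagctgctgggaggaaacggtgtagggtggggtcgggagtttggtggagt
Orc1: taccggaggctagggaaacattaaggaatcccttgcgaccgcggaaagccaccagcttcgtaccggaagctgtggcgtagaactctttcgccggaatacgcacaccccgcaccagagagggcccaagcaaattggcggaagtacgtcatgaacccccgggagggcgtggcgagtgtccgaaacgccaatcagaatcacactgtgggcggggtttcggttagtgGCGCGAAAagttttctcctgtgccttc
Gins3: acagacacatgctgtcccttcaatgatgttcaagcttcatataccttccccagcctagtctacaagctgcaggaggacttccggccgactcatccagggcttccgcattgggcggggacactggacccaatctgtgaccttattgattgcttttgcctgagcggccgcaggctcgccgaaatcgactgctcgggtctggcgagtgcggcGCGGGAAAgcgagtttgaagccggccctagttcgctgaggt
Rad51ap1: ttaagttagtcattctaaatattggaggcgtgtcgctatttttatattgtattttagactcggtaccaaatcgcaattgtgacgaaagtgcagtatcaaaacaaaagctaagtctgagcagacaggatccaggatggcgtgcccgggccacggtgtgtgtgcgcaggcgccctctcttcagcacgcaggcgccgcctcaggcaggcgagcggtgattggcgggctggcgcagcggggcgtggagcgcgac
The capital run of Mcm5, and the first of Mcm6, each hold a pair of words that overlap on opposite strands. The words start 153 and 149 bases before the start in Mcm5, 110, 106 and 47 bases in Mcm6, 138 bases in Cdc6, 27 bases in Orc1 and 41 bases in Gins3. No such word stands in the Rad51ap1 window.

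Values are log2 signals. The median of an array lay between 5.31 and 5.36 after quantile normalization, which hides any change that all genes share. Gnl3 was lower after Dox in all 4 pairs, with a log2 ratio of treated over untreated cells of -5.68 with the empty vector, -5.53 in 2i, -4.56 with Nanog and -5.00 with Esrrb. The mean log2 signal of 8 ES cell markers was 12.29 on the treated empty vector array and 12.38 on the treated 2i array, the lowest of the 8 arrays, and reached 12.71 on the treated Esrrb array. Their median log2 ratios were -0.38 and -0.21 in these 2 pairs and 0.08 and 0.11 with Nanog and Esrrb. For 4 of them, Pou5f1, Zfp42, Tdgf1 and Sall4, both treated arrays without a forced factor were below the other 6, and Sall4 fell in the common response described below (coefficient -0.40, SE 0.0826, limma adjusted p = 0.046). Of the others, Sox2 and Dppa5a were higher in all 4 pairs. Utf1 went from 10.54 to 10.85 with the empty vector and from 10.62 to 9.50 in 2i. Fgf4 went from 11.02 to 10.39 and from 11.23 to 11.39. The mean of 10 fibroblast markers lay between 4.17 and 4.55. The mean log2 signal of 14 trophoblast markers went from 5.72 to 7.59 upon Dox in the empty vector pair and from 5.89 to 7.19 in the 2i pair, against 5.93 to 6.07 with Nanog and 6.06 to 6.09 with Esrrb. Over 2-fold higher were 9 of the 14 with the empty vector, 7 in 2i and 0 with Nanog or Esrrb. With the empty vector the log2 signal of the trophoblast transcription factors went from 4.28 to 5.35 for Cdx2, 6.74 to 7.84 for Eomes, 4.03 to 5.99 for Gata3, 6.30 to 9.0 for Ascl2, 9.36 to 10.34 for Tfap2c and 3.29 to 3.32 for Elf5. It went from 5.87 to 6.40 for Hand1 and from 5.91 to 6.35 for Esx1. In 2i the change of Cdx2 was smaller, from 4.90 to 5.01, and 0 of the 14 markers were lower. The untreated 2i array was close to the untreated empty vector array in genes that the MEK inhibitor lowers. Dusp6 and Spry4, feedback genes of the MEK pathway, had log2 signals of 10.95 and 9.92 there and 10.97 and 10.17 on the untreated empty vector array, but 7.63 and 4.07 on the treated 2i array. The median of the members and their over 2-fold count in 2i are therefore also given with the untreated empty vector array as reference. All other 2i ratios use the untreated 2i array. Dusp6 and Spry4 were high on both reference arrays, so neither reference can tell an effect of the inhibitors from loss of NS. This limit holds wherever the 2i pair enters a count or a fit.

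Most members had a lower signal after Dox in the empty vector and 2i pairs and stood close to the untreated signal with forced Nanog or Esrrb. The median log2 ratio over the 41 members was -0.51 with the empty vector and -0.53 in 2i, against 0.00 with Nanog and -0.13 with Esrrb. Over all 18194 genes the medians were -0.03, 0.03, -0.01 and 0.00. With the untreated empty vector array as reference, the 2i median of the members was -0.47. In a bulk sample, fewer cells in S phase and less RNA of each gene per cell cannot be told apart. The medians of the trophoblast and ES cell markers moved with the same pairs, and the part of these markers in the lower signals was not tested.

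The direction was shared by nearly all members without a forced factor. In the empty vector pair 36 of the 41 members were lower after Dox, where 54.2% of all genes were, and in the 2i pair 39 were lower, where 46.4% of all genes were. With Nanog 20 members were lower (all genes 52.0%), and with Esrrb 26 (all genes 49.5%). Few of these ratios passed 2-fold. Over 2-fold lower with the empty vector were 4 members (3.85% of all genes), Mcm10, Gins3, Rad51ap1 and Chek1. In 2i they were Cdc6, Mcm10, Brca1 and Fancd2 (4 members, against 3.10% of all genes), and with the untreated empty vector array as reference they were Mcm10, Rad51ap1 and Fancd2 (3 members, against 3.85%). With Nanog only Tyms was (1 member, against 1.17%), and with Esrrb 0 members were (0.967%). No member was over 2-fold higher in any pair, where 5.36%, 4.81%, 1.13% and 1.06% of all genes were.

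**Figure D1:**
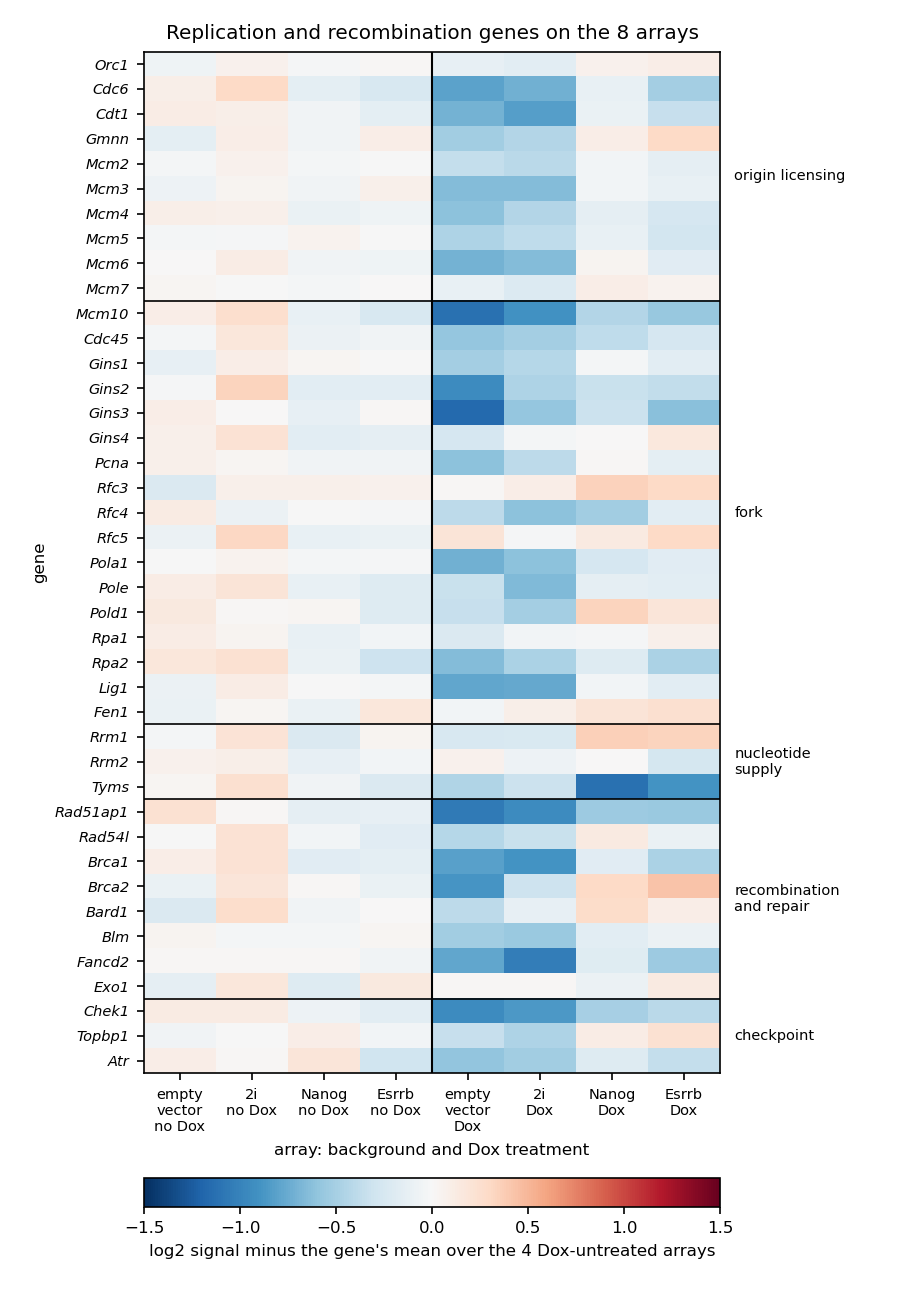
Heat map of the 41 members in rows, grouped by role, and the 8 arrays in columns. Colour gives the log2 signal minus the gene's mean over the 4 untreated arrays, and for 29 members both the treated empty vector and the treated 2i column are below the other 6 columns.

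The spread between backgrounds before Dox gives a scale for these ratios. For the members, the range over the 4 untreated arrays had a median of 0.26 on the log2 scale, against 0.32 for all genes, and the widest was that of Cdc6, at 0.55. In the empty vector pair 32 members were lower by more than their own range (22.1% of all genes), and in the 2i pair 33 were (19.5%). With Nanog 9 were (15.0%) and with Esrrb 11 (12.5%). Relative to the untreated empty vector array, the median member was 0.10 higher on the untreated 2i array, and differed by -0.07 with Nanog and by -0.07 with Esrrb. For 29 members both treated arrays without a forced factor were below the other 6 arrays, which held for 12.7% of all genes. This was the case for 10 of 10 licensing genes, 9 of 17 fork genes, 1 of 3 nucleotide supply genes, 6 of 8 repair genes and 3 of 3 checkpoint genes.

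Origin licensing genes had no exception in direction. All 10 were lower after Dox in the empty vector and the 2i pair, with a median log2 ratio of -0.50 and -0.53, and the median was 0.02 with Nanog and -0.16 with Esrrb. Cdc6, which with the origin recognition complex prepares the origin for the helicase, had a log2 signal of 9.70 without and 8.82 with Dox in empty vector cells, 9.92 and 8.90 in 2i, 9.47 and 9.51 with Nanog, and 9.37 and 9.10 with Esrrb. The 2 treated arrays without a forced factor were the lowest, and all 4 untreated arrays lay above them. Cdt1, its partner in loading, had 12.90 and 12.08 with the empty vector, 12.88 and 11.96 in 2i, 12.75 and 12.70 with Nanog, and 12.65 and 12.45 with Esrrb. Here too the 6 other arrays stood above both treated arrays without a forced factor.

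The members of the helicase ring differed in the size of their ratios on the chosen probe sets. Mcm6 had a log2 signal of 12.28 and 11.57 with the empty vector, 12.38 and 11.63 in 2i, 12.23 and 12.32 with Nanog, and 12.21 and 12.11 with Esrrb. The low values were again those of the treated empty vector and 2i arrays. Mcm5 had 12.72 and 12.29 with the empty vector, 12.74 and 12.38 in 2i, 12.81 and 12.64 with Nanog, and 12.74 and 12.47 with Esrrb. Every treated array of Mcm5 lay below every untreated one. The log2 ratios of Mcm2, Mcm3, Mcm4 and Mcm7 with the empty vector were -0.32, -0.57, -0.70 and -0.14, and in 2i they were -0.47, -0.70, -0.51 and -0.20. Mcm7 thus stood at 91.0% of its untreated signal with the empty vector and Mcm6 at 61.0%, on the scale of each probe set. Over bright probe sets the empty vector ratio ran from -0.34 to -0.04 for Mcm7 and from -0.91 to -0.71 for Mcm6. It ran from -0.66 to -0.32 for Mcm2 and from -0.70 to -0.41 for Mcm4. The ranges of Mcm2 and Mcm4 overlapped, and those of Mcm6 and Mcm7 did not. Orc1, the large subunit of the origin recognition complex, had the smallest ratio of the licensing genes with the empty vector, -0.07, and -0.22 in 2i. This held for the chosen probe sets, and the other Orc1 probe set gave -0.33 and -0.21. Gmnn, the inhibitor of Cdt1, had -0.37 and -0.54 without a forced factor and 0.15 and 0.20 with Nanog and Esrrb.

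Fork genes had close to the same medians without a forced factor, -0.51 and -0.53, and -0.04 with Nanog and -0.13 with Esrrb, but ran from well below to slightly above the untreated signal. Mcm10, which joins the helicase to polymerase alpha, had a log2 signal of 10.66 and 9.44 with the empty vector, 10.81 and 9.65 in 2i, 10.45 and 10.12 with Nanog, and 10.32 and 9.99 with Esrrb. All treated arrays were below all untreated arrays, and those without a forced factor were the lowest. Gins2 had 10.05 and 9.13, 10.41 and 9.61, 9.91 and 9.74, and 9.92 and 9.71 in the same order. Its lowest values were those of the treated empty vector and 2i arrays, and the untreated 2i array was the highest of the 8. Gins3 had 8.84 and 7.58 with the empty vector, 8.75 and 8.16 in 2i, 8.62 and 8.42 with Nanog, and 8.76 and 8.11 with Esrrb. The treated Esrrb array lay below the treated 2i array for Gins3.

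Within the GINS complex the ratio with the empty vector was -0.39 for Gins1 and -0.33 for Gins4, beside -0.92 and -1.26 for Gins2 and Gins3. Cdc45, the other partner of the active helicase, had -0.55 with the empty vector and -0.68 in 2i on the chosen probe set. Its other bright probe set, with a lower mean of 6.19 against 9.15, gave -0.02 and 0.07, so the fall depended on the probe set. Pola1, the catalytic subunit of polymerase alpha, had -0.72 and -0.67, Lig1, which seals Okazaki fragments, -0.69 and -0.88, and Rpa2, a subunit of the single-strand binding protein, -0.82 and -0.70. Their ratios with Nanog and Esrrb were -0.22 and -0.15, -0.04 and -0.13, and -0.09 and -0.17. Pcna, the sliding clamp, had -0.69 and -0.42 without and 0.07 and -0.09 with a forced factor. Pold1, a catalytic polymerase subunit of the fork, changed sign, from -0.49 and -0.53 to 0.30 with Nanog and 0.37 with Esrrb. Pole, the catalytic subunit of the leading strand polymerase, had -0.46 and -0.86 without and -0.02 and 0.04 with a forced factor. Rpa1, the large subunit of the single-strand binding protein, had -0.32 and -0.08 against 0.09 and 0.11. Its other probe set gave -0.49 and -0.23 against -0.04 and -0.08.

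The fork genes that were not lower with the empty vector were Rfc3 and Rfc5 of the clamp loader, and Fen1, which trims Okazaki fragments. Rfc3 had log2 ratios of 0.24 with the empty vector, 0.02 in 2i, 0.28 with Nanog and 0.24 with Esrrb, and Fen1 had 0.06, 0.06, 0.29 and 0.07. These were the 2 members with a higher signal in all 4 pairs (18.4% of all genes). Rfc4, a subunit of the same loader, had -0.51, -0.52, -0.52 and -0.14, so with Nanog it was as low as without a forced factor. Rfc5 had 0.29, -0.33, 0.25 and 0.40. The 3 loader subunits on the list therefore gave 3 different patterns.

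**Figure D2:**
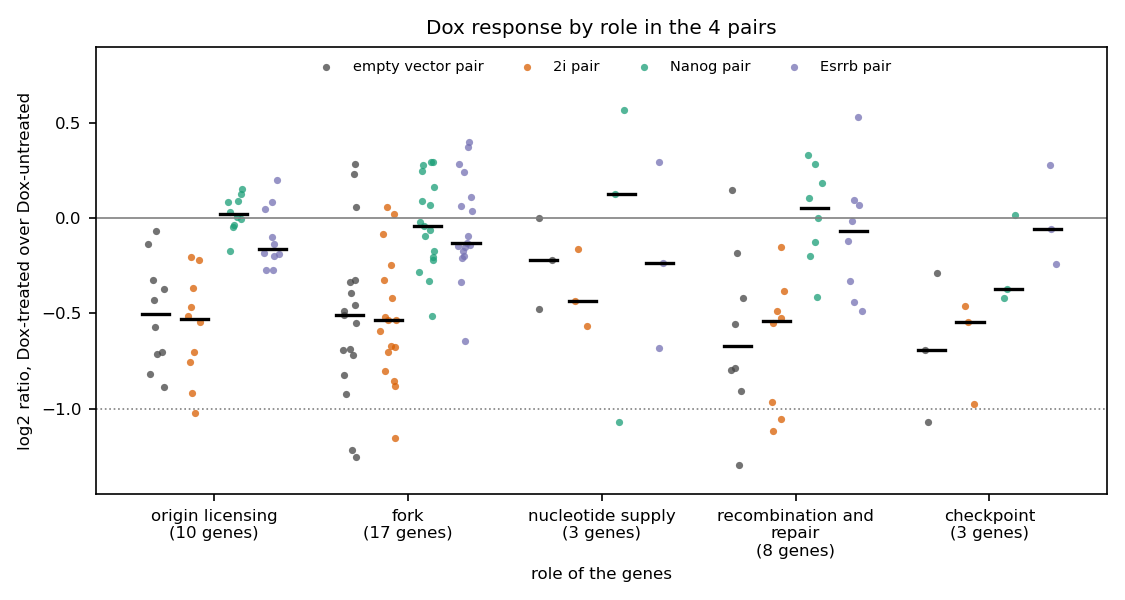
Log2 ratio of treated over untreated cells for each member, with points for members, grouped by role and coloured by pair, and black bars for the median. The dotted line marks 2-fold lower. Licensing genes lie below 0 throughout in the empty vector and 2i pairs, with Orc1 near 0 in the empty vector pair. Fork genes include members above 0 in both pairs, and of the repair genes only Exo1 lies above 0, in the empty vector pair.

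The 3 genes of nucleotide supply gave 3 patterns. Rrm1, the large subunit of ribonucleotide reductase, had a log2 signal of 10.56 and 10.35 with the empty vector, 10.79 and 10.36 in 2i, 10.38 and 10.95 with Nanog, and 10.63 and 10.92 with Esrrb. The treated arrays with Nanog or Esrrb were the 2 highest, and those of the empty vector and 2i were the lowest. Rrm2, the subunit that sets its activity through the cycle, had 12.67 and 12.68, 12.70 and 12.53, 12.49 and 12.62, and 12.57 and 12.34. Its treated and untreated arrays overlapped. Tyms, thymidylate synthase, had 5.14 and 4.67 with the empty vector, 5.36 and 4.79 in 2i, 5.06 and 3.99 with Nanog, and 4.89 and 4.21 with Esrrb. Every treated array of Tyms was below every untreated one, and the lowest were those with Nanog and Esrrb. Tyms was the 1 member whose chosen probe set had a mean below the median of all probe sets, 5.35, where log2 ratios are compressed. Its probe sets disagreed, as another with a mean of 4.68, against 4.76 for the chosen one, gave log2 ratios of -0.27, -0.36, 0.11 and -0.0016.

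Recombination and repair genes had medians of -0.67 with the empty vector and -0.54 in 2i, and of 0.05 with Nanog and -0.07 with Esrrb. Rad51ap1, which takes part in the pairing of DNA strands, had a log2 signal of 10.39 and 9.09 with the empty vector, 10.18 and 9.21 in 2i, 10.02 and 9.61 with Nanog, and 10.04 and 9.59 with Esrrb. All 4 treated arrays were below all untreated ones. Brca1, which acts at the start of resection, had 10.52 and 9.61, 10.64 and 9.53, 10.25 and 10.25, and 10.28 and 9.95. Fancd2, the central protein of the Fanconi anaemia pathway for cross-link repair, had 8.63 and 7.83, 8.63 and 7.57, 8.63 and 8.43, and 8.56 and 8.07. Both had their 2 lowest values on the treated arrays without a forced factor, and the chosen Brca1 probe set had a ratio of 0.00 with Nanog. Over its 3 bright probe sets the ratio ran from -1.09 to -0.65 with the empty vector, from -0.44 to 0.00 with Nanog and from -1.06 to -0.33 with Esrrb.

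Brca2, a mediator of recombination at resected ends, had the largest difference between the forced and the other pairs among the members. Its log2 ratio was -0.78 with the empty vector and -0.49 in 2i, but 0.29 with Nanog and 0.53 with Esrrb. Rad54l, a motor protein of strand exchange, had -0.42 and -0.55 without and 0.18 and 0.07 with a forced factor, and Bard1, the partner of Brca1, had -0.18 and -0.38 against 0.33 and 0.10. Other bright Rad54l probe sets were lower with a forced factor too, down to -0.51 with Nanog and -0.40 with Esrrb. Blm, a helicase that resolves joint molecules, had -0.56 and -0.52 against -0.12 and -0.12. Exo1, a resection nuclease, was the exception, with 0.15, -0.15, 0.11 and -0.01.

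The checkpoint genes had medians of -0.69 and -0.54 without a forced factor, and of -0.37 with Nanog and -0.06 with Esrrb. Chek1, the kinase that Atr activates, had a log2 signal of 10.79 and 9.72 with the empty vector, 10.79 and 9.81 in 2i, 10.59 and 10.17 with Nanog, and 10.51 and 10.27 with Esrrb. Its 4 treated arrays were the 4 lowest. Over its 3 bright probe sets the ratio with the empty vector ran from -2.03 to -0.92, and that with Esrrb from -1.29 to -0.24. Atr itself had 10.14 and 9.45, 10.05 and 9.51, 10.21 and 9.84, and 9.73 and 9.68, and Topbp1, its activator, 11.23 and 10.94, 11.28 and 10.82, 11.38 and 11.40, and 11.24 and 11.52. For Atr the treated arrays without a forced factor were the lowest, yet the untreated Esrrb array lay below the treated Nanog array, while for Topbp1 the treated Esrrb array was the highest. The bright probe sets of both genes disagreed, with empty vector ratios from -0.69 to 0.06 for Atr and from -0.29 to 0.27 for Topbp1.

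The response common to the 4 pairs was tested with limma, with the background as a block. Of the 41 members, 3 fell at an adjusted p under 0.05 (3.39% of all genes) and 0 rose (3.69%). At an unadjusted p under 0.05, 22 were lower (14.0% of all genes) and 0 higher (13.4%). Mcm5 fell by 0.31 (SE 0.0616, limma adjusted p = 0.0437), Tyms by 0.70 (SE 0.127, limma adjusted p = 0.0373) and Rad51ap1 by 0.78 (SE 0.168, limma adjusted p = 0.0499), each lower in 4 of 4 pairs. By the mean of its probe sets Tyms had a coefficient of -0.18 and was not called. These p-values measure the spread between the backgrounds, which were taken as replicates. Leaving out the empty vector, 2i, Nanog or Esrrb pair left 0 members called, and 0.159%, 0.0989%, 0.192% and 0.0165% of all genes. Mcm10 had a coefficient of -0.76 (SE 0.188, limma adjusted p = 0.065) and Chek1 of -0.68 (SE 0.16, limma adjusted p = 0.0587), and were not called. In all, 19 members were lower in all 4 pairs (19.1% of all genes).

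The difference between the response with forced Nanog or Esrrb and the response without was positive for 40 of the 41 members. At an adjusted p under 0.05 limma called 0 of them, where it called 15 of all genes (0.0824%), while 29 were higher in the forced pairs at an unadjusted p under 0.05 (7.86% of all genes) and 0 lower (7.94%), where 15.8% of all genes passed in either direction. Of the roles, 8 of 10 licensing genes, 12 of 17 fork genes, 1 of 3 nucleotide supply genes, 6 of 8 repair genes and 2 of 3 checkpoint genes were among the 29. The largest coefficient was that of Brca2, 1.04 (SE 0.165, limma adjusted p = 0.0675), and the smallest adjusted p that of Cdt1, with a coefficient of 0.74 (SE 0.102, limma adjusted p = 0.0555). Mcm10 had 0.86 (SE 0.122, limma adjusted p = 0.0582), Pold1 0.85 (SE 0.118, limma adjusted p = 0.0557) and Mcm6 0.73 (SE 0.109, limma adjusted p = 0.0643). Without the empty vector pair, 23 members were called and 11.5% of all genes, and without the 2i pair, 21 members and 12.2%, but then 1 pair alone stood on 1 side and 1 residual degree of freedom was left. Without the Nanog or the Esrrb pair, 0 members and 0.00% of all genes were called.

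**Figure D3:**
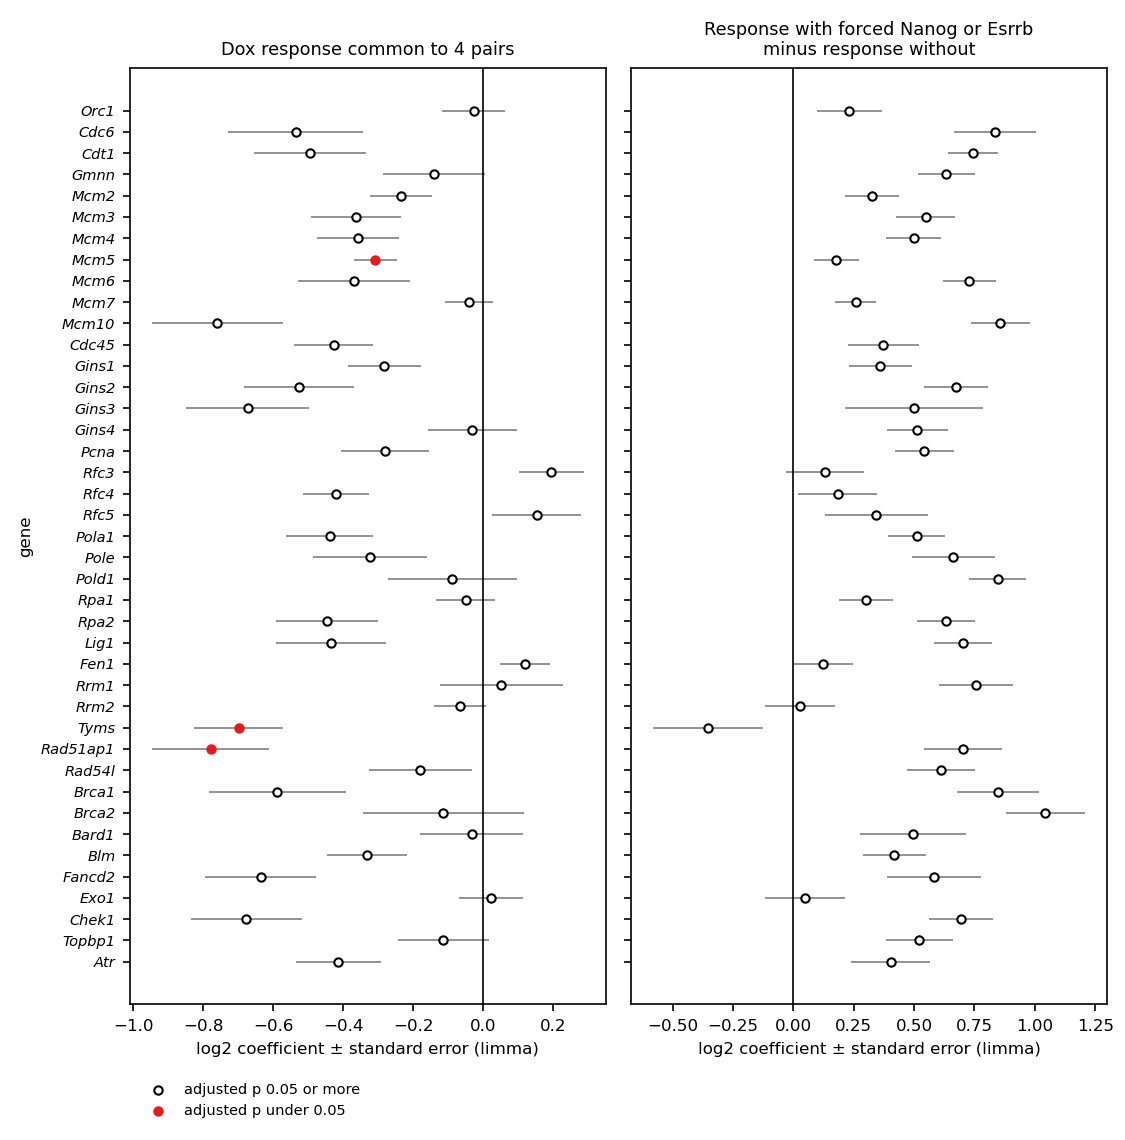
Coefficients of the limma fits for each member, with the common response on the left and the difference of the forced from the other pairs on the right, bars of 1 SE on the log2 scale and red points for an adjusted p under 0.05. Of the 41 common coefficients 36 lie below 0, and of the differences 40 lie above 0, with Tyms as the exception.

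Counting without a test, the log2 ratios of both the empty vector and the 2i pair were below those of both the Nanog and the Esrrb pair for 35 of 41 members (23.2% of all genes). By role these were 10 of 10 licensing genes, 14 of 17 fork genes, 1 of 3 nucleotide supply genes, 7 of 8 repair genes and 3 of 3 checkpoint genes. The reverse order held for 1 member, Tyms (24.1% of all genes). Members lower without and higher with a forced factor numbered 11 (5.66%), which were Orc1, Gmnn, Mcm7, Gins4, Pold1, Rpa1, Rrm1, Rad54l, Brca2, Bard1 and Topbp1. For Rad54l, Rpa1, Mcm7 and Topbp1 the signs depended on the probe set. Over bright probe sets the Rad54l ratio ran from -0.51 to 0.18 with Nanog and from -0.40 to 0.07 with Esrrb. For Rpa1 it ran from -0.04 to 0.09 and from -0.08 to 0.11, and for Mcm7 from -0.01 to 0.13 and from -0.13 to 0.05.

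**Figure D4:**
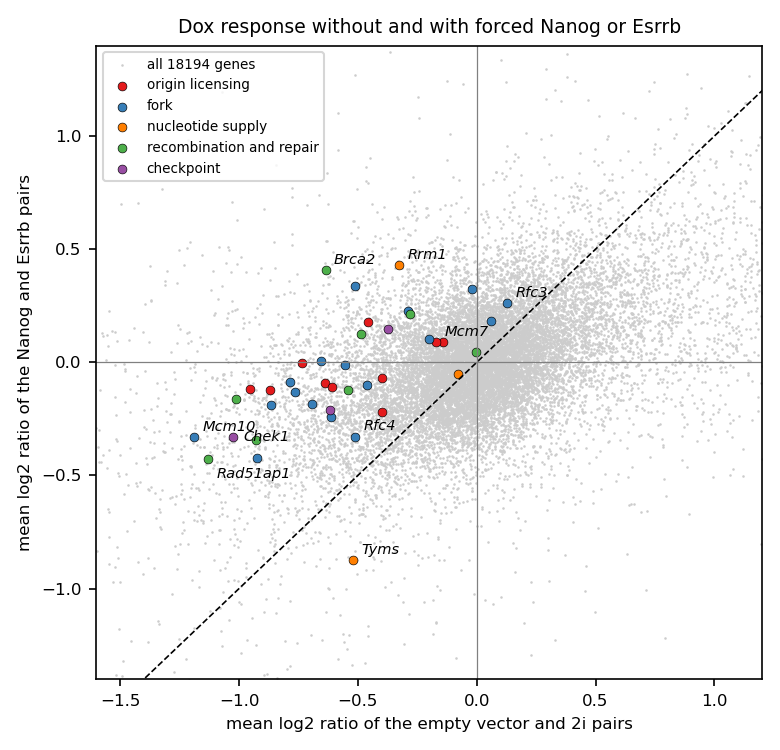
Mean log2 ratio of the Nanog and Esrrb pairs (vertical) against the mean over the empty vector and 2i pairs (horizontal) for the members, coloured by role, over all 18194 genes in grey. The dashed line marks equal responses, genes outside the plotted range are not drawn, and 40 of 41 members lie above the line.

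Other genes of the same pathways, 82 measured from a list of further licensing, fork, repair and checkpoint genes, moved less as a group, with medians of -0.31 and -0.31 without and 0.00 and 0.06 with a forced factor. Both lists were chosen with earlier results of these data known, so this difference cannot be told apart from the choice of genes. In the common response limma called 3 of them lower, Mcm8, Nbn and Gen1 (3.66%, against 3.39% of all genes). It called 5 higher, Rpa3, Rnaseh2c, Ctc1, Fanci and Chek2 (6.10%, against 3.69%). The share called lower was thus close to that of all genes. Nbn, part of the complex that senses breaks, fell by 0.74 (SE 0.11, limma adjusted p = 0.0269), and Chek2, the kinase of the break checkpoint, rose by 0.78 (SE 0.0894, limma adjusted p = 0.0199). Over 2-fold lower with the empty vector were Mcm8, Chaf1b, Rad51c, Rad54b and Nbn (6.10% of the 82, against 3.85% of all genes). Their ratios were -1.05, -1.32, -1.61, -1.07 and -1.03. Over 2-fold higher were Rnaseh2c, Top1 and Dck, at 1.05, 1.36 and 1.09 (3.66% of the 82, against 5.36% of all genes). Of 15 E2F and Rb genes, limma called 2 lower and 2 higher (3.39% and 3.69% of all genes). E2f3 fell (coefficient -0.80, SE 0.132, limma adjusted p = 0.0317). Its log2 signal went from 9.52 to 8.34 with the empty vector and from 9.32 to 8.48 in 2i. It was also lower with a forced factor, from 9.15 to 8.66 with Nanog and from 8.89 to 8.20 with Esrrb. Rb1, the retinoblastoma protein, rose (coefficient 1.21, SE 0.213, limma adjusted p = 0.0358), with ratios of 1.72, 1.65, 0.91 and 0.58 in the 4 pairs. Lin54, of the complex that represses and activates cell cycle genes, fell (coefficient -0.50, SE 0.0928, limma adjusted p = 0.0395) and Rbl2, a relative of Rb1, rose (coefficient 0.48, SE 0.100, limma adjusted p = 0.0472). E2f8, a repressor of the family, had ratios of -1.15, -1.95, 0.40 and -0.26 and was not called. Mitosis genes, 24 in number, had 3 called lower, or 12.5% of them, beside 7.32% of the members and 3.39% of all genes. These were Kif11 (coefficient -0.76), Ndc80 (-0.98) and Prc1 (-0.51), with limma adjusted p of 0.0419, 0.0139 and 0.0243. The list had medians of -0.12 with the empty vector, -0.47 in 2i, -0.06 with Nanog and -0.07 with Esrrb.

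Promoters of the members held E2F words more often than promoters at large, as a count with no test. An E2F word occurred in the 300-base windows of 39.5% of 38 member promoters, of 77.8% of 9 licensing promoters and of 2.26% of all 32851 promoters in the table. Of 33 members with a promoter in the table, 15 held one. CCAAT, on either strand, stood in 57.9% of the member promoters and 37.4% of all. The word TTTGAA or its complement, part of the cell cycle homology element of mitosis genes, stood in 13.2% of the member promoters, 17.9% of all and 76.2% of 21 promoters of mitosis genes. The 15 members with an E2F word had median log2 ratios of -0.57, -0.53, 0.04 and -0.10 in the pairs of the empty vector, 2i, Nanog and Esrrb, and the 18 without had -0.53, -0.53, -0.05 and -0.14. Both ratios without a forced factor lay below both with one for 93.3% of the 15 and 77.8% of the 18. Over all genes with a promoter, this order held for 38.9% of 550 genes with an E2F word and 22.5% of 13903 without. These differences were not tested. Over bright probe sets, Orc1, which holds a word, had empty vector ratios from -0.33 to -0.07. Rad51ap1, which holds none, had ratios from -1.46 to -1.03. These 2 genes were picked from the 33 as examples, and the part of the words in the ratios was not tested.

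**Figure D5:**
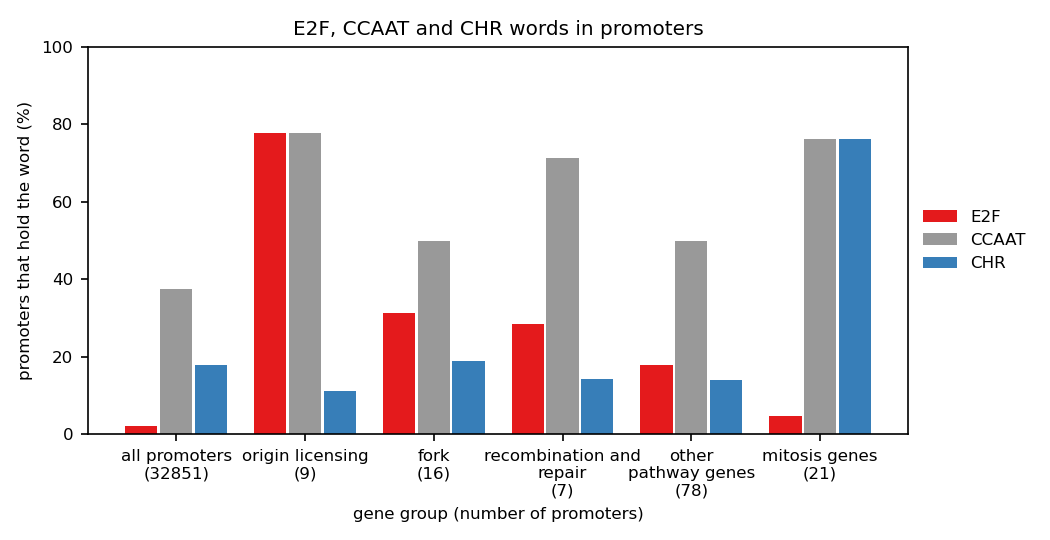
Percent of promoter windows with an E2F, CCAAT or CHR word (TTTGAA) for each gene list and for all promoters, as bars from 0. Licensing promoters reach 77.8% for the E2F words against 2.26% of all promoters, and mitosis promoters 76.2% for the CHR word.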

How the data were processed

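The data are 8 Affymetrix whole-genome mouse arrays of total RNA, 1 for each condition, grouped by the labels. The authors background subtracted and normalized the data with the robust multiarray analysis method (RMA, affy package) in R, and the deposited values are log2 signals of 45101 probe sets. The sources used here give no version of either. 0 value columns belong to no sample used. Of the probe sets, the platform annotation pairs 34958 with a single gene symbol, 932 with several, which named no gene, and 9211 with none here. RefSeq held 34754 of the 34958 by Entrez ID. The brightest probe set on average stood for each of 18194 genes.

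A log2 ratio is the treated minus the untreated value of a pair, and over 2-fold means above 1 or below -1. limma (3.58.1, R 4.3.3; lmFit, eBayes with a trend) fitted the common Dox response, with background as a block, and the difference between the Nanog and Esrrb pairs and the others, with Benjamini-Hochberg adjustment over all genes at 0.05. The fits were tested on simulated data. Python 3.11.15 with numpy 2.4.6, pandas 2.3.3 and matplotlib 3.10.9 did the rest. Arrays were few, which limits the precision.

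The members and the other lists were chosen with earlier results of these data known. Full values are given for members called by either fit and for the 3 members of each role whose ratio in the empty vector pair was largest in size. Genes of the other lists are named where called or over 2-fold in the empty vector pair (keratins and Plac1 as a count), the other transcription factors and ES cell markers after their values were seen, and values of other members illustrate their role. Alternatives were averaging the probe sets of a gene, dropping those with names in _x_at, dropping dim ones, quantile normalization again, centring, eBayes without trend, no block, thresholds of 1.5-fold and 3-fold, another reference for the 2i pair and leaving out each pair.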

Additional observations from a re-analysis of the deposited data

How the results depend on the processing

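Of the counts and medians, 188 values under an alternative stayed within the limit for the same result and 18 moved. Members called lower in the common response, 3 in all, were 1 without the trend, 6 without the background block, and between 0 and 0 when leaving out 1 pair at a time. Members called higher in the difference, 0 in all, were between 0 and 23 when leaving out 1 pair. Members over 2-fold lower with the empty vector, 4 in all, were 2 by the mean of the probe sets, 17 at 1.5-fold and 0 at 3-fold. In 2i, 4 in all, they were 2, 16 and 0. With Nanog, 1 in all, they were 0 by the mean of the probe sets, 0 with the dim filter and 0 at 3-fold, and with Esrrb, 0 in all, 2 at 1.5-fold. Of single genes, 8 values changed sign. The common coefficient of Rrm1 was -0.12 without the Nanog pair and -0.028 without the Esrrb pair, and ran up to 0.21 when leaving out 1 pair. That of Topbp1 was 0.029 by the mean of the probe sets and 0.0016 without the 2i pair, and ran down to -0.24. The difference of Rrm2 was -0.0057 after quantile normalization again, -0.055 without the 2i pair and -0.15 without the Nanog pair, up to 0.21 without the Esrrb pair, and that of Tyms was 0.076 by the mean of the probe sets. The cause was not tested. The labels carry no replicate numbers, and treated and untreated arrays were paired by background, the block of the fits. Of 28 members with several bright probe sets, 22 had all of them lower with the empty vector and 3, Atr and Topbp1 among them, had probe sets on both sides of 0.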
